A study of Mus musculus with 4 samples.

Results

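The 10 genes described here encode granins and the enzymes that turn prohormones into peptide hormones: *Chga*, *Chgb*, *Scg2*, *Scg3*, *Scg5*, *Pcsk1*, *Pcsk2*, *Cpe*, *Pam* and *Resp18*. They were chosen by name, out of 21938 protein-coding genes, and every ATAC-seq peak inside a gene body or within 20 kb of it was counted. The peaks came from 4 cell lines, with 1 library per line. SMC lines 1 and 2 (NCAM hi CD44 lo/-) and non-SMC lines 1 and 2 (NCAM lo CD44 hi) were sorted by FACS from small cell lung cancer (SCLC) tumors of mice on a mixed C57Bl/6, Balb-c and S129 background. These *RP* mice carried floxed *Rb1* and *Trp53* (Rb1 L/L, Trp53 L/L), deleted in the lung by an adenovirus that expresses Cre. All 4 lines came from this model and were untreated in culture, and the SMC and non-SMC lines are labelled as paired. A line pair here means SMC and non-SMC line 1, or SMC and non-SMC line 2. In culture, SMC grow as spheres in suspension and non-SMC adhere, so growth mode and cell type cannot be told apart.

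Granins are acidic secretory proteins that aggregate in the trans-Golgi network and help to form dense-core granules, the stores from which neuroendocrine cells release peptides on stimulation. Inside the granule, the convertases encoded by *Pcsk1* and *Pcsk2* cut prohormones after basic residues, the carboxypeptidase encoded by *Cpe* trims those residues, and the enzyme encoded by *Pam* amidates the new end of the peptide. Neuroendocrine lung cells and SCLC are known for this machinery, and CHGA is used in pathology as a marker of both. ATAC-seq reads open chromatin from the sites where a transposase can enter DNA.

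The 4 lists held between 91057 and 153954 peaks on chromosomes 1 to 19, X and Y. Their lowest background, a measure of depth, was highest in SMC line 2 and non-SMC line 1, at 3.37 and 3.26 times that of SMC line 1, and non-SMC line 2 stood at 1.4 times. Fold enrichment depends on depth, so a peak is given here by its percentile, its rank by fold enrichment within its own list, and by the -log10 q that the authors' peak caller gave it. With 2 lines against 2, a two-sided exact permutation test cannot go below p = 0.33, so none was made. In these bulk libraries, the share of cells with an open site and the degree of opening per cell cannot be told apart. At their starts, the defining markers of non-SMC cells followed the labels. The starts of *Cd44*, *Vim*, *Wwtr1*, *Yap1* and *Axl* all lay under peaks of the non-SMC lines and under none of the SMC lines. Such a pattern, with peaks from both lines of 1 type and from no line of the other, is called SMC-only or non-SMC-only from here on. In the wider promoter, within 3 kb of the start, none of these 5 genes was non-SMC-only, since SMC line 2 had a peak there at all 5. Of the neuroendocrine markers, *Ncam1*, the sorting marker, and *Syp* had promoter peaks in all 4 libraries, and the promoters of *Insm1* and *Neurod1* fell in neither class. The starts of these 4 genes were also in neither class. Among markers of other cells, *Ptprc* of leukocytes and *Sftpc* of alveolar epithelium had a promoter peak in 1 library each, and that of *Pecam1*, an endothelial gene, was non-SMC-only.

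The promoters of 7 genes are printed first, because the results turn on whether a peak lay over their starts. Each runs from 200 bases before the RefSeq start through the first 30 bases of the transcript (GRCm38.p6, 5′ to 3′ in the direction of transcription). Capitals mark TGACGT on either strand, the core of the cyclic AMP response element (CRE, TGACGTCA in full), and CAGCTG, an E-box.
Chga, chr12:102554741-102554970, plus strand: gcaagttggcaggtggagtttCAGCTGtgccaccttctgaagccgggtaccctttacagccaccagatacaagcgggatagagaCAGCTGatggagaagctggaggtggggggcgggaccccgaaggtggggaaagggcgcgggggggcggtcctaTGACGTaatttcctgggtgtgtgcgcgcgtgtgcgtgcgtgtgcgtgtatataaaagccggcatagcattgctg
Scg3, chr9:75684027-75684256, minus strand: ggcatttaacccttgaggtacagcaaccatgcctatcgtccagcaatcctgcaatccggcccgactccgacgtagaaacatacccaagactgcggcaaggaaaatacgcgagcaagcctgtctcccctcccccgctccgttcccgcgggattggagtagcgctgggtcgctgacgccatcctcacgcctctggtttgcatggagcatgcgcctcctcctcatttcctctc
Scg5, chr2:113829062-113829291, minus strand: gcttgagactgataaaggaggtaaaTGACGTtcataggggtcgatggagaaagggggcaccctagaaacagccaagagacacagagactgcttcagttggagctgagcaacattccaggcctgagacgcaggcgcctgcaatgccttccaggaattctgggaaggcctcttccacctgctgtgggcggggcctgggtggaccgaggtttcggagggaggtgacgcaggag
Pcsk1, chr13:75089657-75089886, plus strand: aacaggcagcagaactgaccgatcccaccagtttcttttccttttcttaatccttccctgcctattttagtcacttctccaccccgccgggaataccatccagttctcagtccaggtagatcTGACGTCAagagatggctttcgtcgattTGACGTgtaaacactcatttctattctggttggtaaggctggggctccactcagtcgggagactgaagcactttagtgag
Pcsk2, chr2:143545933-143546162, plus strand: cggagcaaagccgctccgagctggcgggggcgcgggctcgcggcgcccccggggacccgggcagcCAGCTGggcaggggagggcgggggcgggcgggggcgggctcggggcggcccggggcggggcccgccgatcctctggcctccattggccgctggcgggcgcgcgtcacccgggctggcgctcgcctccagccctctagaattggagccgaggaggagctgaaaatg
Chgb, chr2:132781442-132781671, plus strand: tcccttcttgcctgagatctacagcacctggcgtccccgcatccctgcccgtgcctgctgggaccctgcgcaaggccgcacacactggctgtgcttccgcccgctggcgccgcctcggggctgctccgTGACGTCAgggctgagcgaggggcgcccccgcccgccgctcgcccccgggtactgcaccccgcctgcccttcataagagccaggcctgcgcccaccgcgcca
Scg2, chr1:79439997-79440226, minus strand: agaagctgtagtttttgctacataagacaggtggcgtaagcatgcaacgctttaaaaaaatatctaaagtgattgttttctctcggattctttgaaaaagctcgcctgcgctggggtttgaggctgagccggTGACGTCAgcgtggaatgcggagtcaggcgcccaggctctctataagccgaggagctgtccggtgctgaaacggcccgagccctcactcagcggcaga
A full CRE stood 72 bases before the RefSeq start in *Chgb*, 68 bases before it in *Scg2* and 78 bases before it in *Pcsk1*. These were 3 of the 9 genes with an entry in the RefSeq promoter table, whereas 1.79% of all 32851 promoters of that table, 300 bases each, hold TGACGTCA. The shorter TGACGT, looked for only after these promoters had been seen, was also found in *Chga* and *Scg5*, so 5 of 9 held it against 7.51% of all promoters. CAGCTG was present in 5 of 9, namely *Chga*, *Chgb*, *Pcsk2*, *Pam* and *Resp18*, against 16.3% of all. The printed *Scg3* promoter held none of these letters. Capitals do not stand for cover by a peak. The marked TGACGT of *Scg5* and CAGCTG of *Pcsk2* lay under no peak of any library, and the marked letters of *Chga* under a peak of SMC line 2 only. The marked letters describe the sequence and were not taken as sites of binding.

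Cover of the start itself was a measure chosen with the data in view, and it gave more SMC-only genes than the wider promoter window described after it. A peak covered the annotated 5′ end of 7 of the 10 genes in SMC line 1 and of all 10 in SMC line 2, but of 2 genes in each non-SMC line. Across all protein-coding genes, this share was 34.9% and 41.3% in the SMC lines and 41.7% and 37.3% in the non-SMC lines, with no such gap between the cell types. *Chga*, *Scg3*, *Scg5*, *Pcsk1* and *Pcsk2* had an SMC-only start, a pattern held by 2.29% of protein-coding genes (502 of 21938). None of the 10 had the opposite pattern, held by 2.34% of genes. *Cpe* and *Pam* were covered in all 4 libraries, and *Chgb*, *Scg2* and *Resp18* in SMC line 2 only. At the RefSeq start, *Chgb* was also covered in SMC line 1 and non-SMC line 2 and *Scg2* in both non-SMC lines, so that 7 and 9 of 9 starts were covered in the SMC lines and 2 and 3 of 9 in the non-SMC lines. The 5 starts were covered in the library with the lowest depth, SMC line 1. They had no peak over them in non-SMC lines 1 and 2, which were 3.26 and 1.4 times as deep by their lowest background. The part of depth in this pattern was not tested. When all lists were scaled to the lowest depth, 5 genes again had this pattern, and 5 of 9 had it at the RefSeq starts. Requiring a -log10 q of 5 or more left 4, and 8 genes had it when SMC line 1 was left out.

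**Figure D1:**
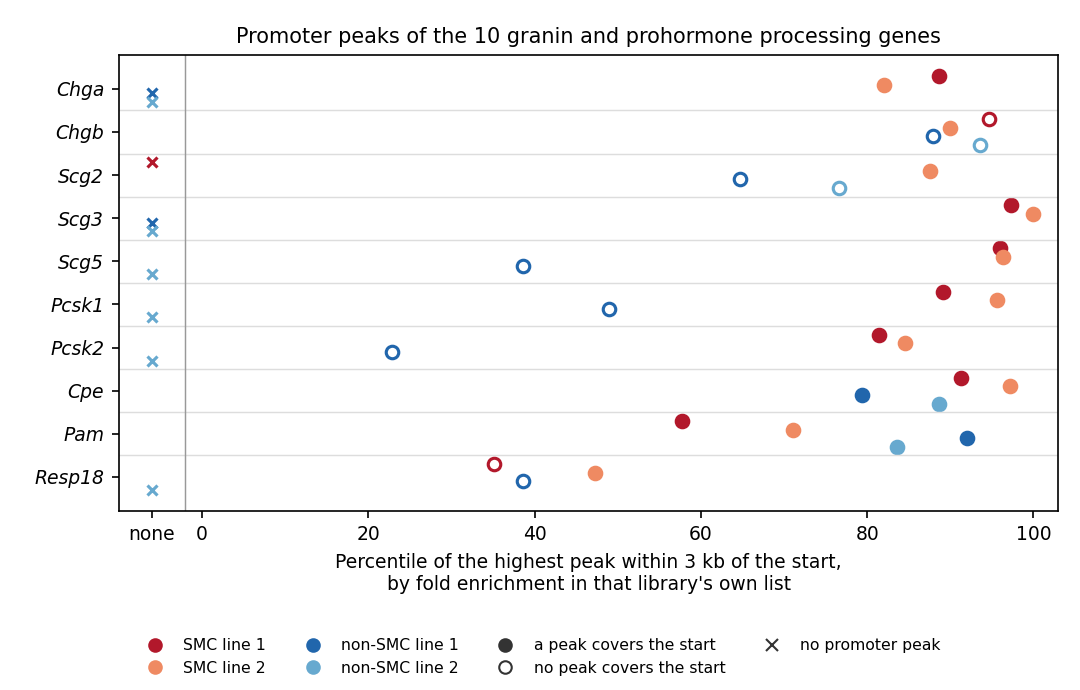
Percentile of the highest peak within 3 kb of the start (x axis, rank by fold enrichment within each library's own list) for each of the 10 genes (y axis), with 1 point per library, filled where a peak covers the start, open where none does, and a cross at "none" for no promoter peak. The SMC points of *Chga*, *Scg3*, *Scg5*, *Pcsk1* and *Pcsk2* lie between 81.4 and 99.9, and the non-SMC points of these genes lie at 49.0 or below or are absent.

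Within the wider promoter of 6 kb centred on the 5′ end, all 10 genes had a peak in SMC line 2, 9 in SMC line 1, and 8 and 4 in non-SMC lines 1 and 2. Over all genes the shares were 69.3%, 62.2%, 64.6% and 64.9%. *Chga* and *Scg3* alone were SMC-only in this window, against 3.08% of all promoters, and 0 of the 10 had the reverse, against 2.45%. *Scg5*, *Pcsk1* and *Pcsk2* missed this stricter class because of a single low peak of non-SMC line 1 beside the start.

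*Chga* (chr12:102554969-102565028, plus strand) encodes chromogranin A, the granin by which neuroendocrine tumors are commonly recognised. Its locus held 9 peaks in SMC line 1 and 12 in SMC line 2, against 3 and 5 in non-SMC lines 1 and 2. Both SMC values were above both non-SMC values, also per 100000 listed peaks, at 9.88 and 7.79 against 2.59 and 3.88. That order per 100000 was found at 20.6% of protein-coding loci with a peak. The log2 ratio of the group means was 1.32, with 1.75 in line pair 1 and 0.92 in line pair 2. All 5 SMC-only regions had summits upstream, at -9700, -8374, -7976, -937 and -1 bp from the start, and the last of these regions covered the start. Over the gene body alone the log2 ratio was 0.06. The peak over the start stood at percentile 83.6 (-log10 q 5.81) in SMC line 1 and 78.0 (6.36) in SMC line 2. A peak upstream of it, with summits at -937 and -927 bp, stood higher, at percentiles 88.6 and 82.0, and by the mean of these it led the SMC-only regions of the locus (chr12:102553791-102554465), although the region at -9700 bp stood at 89.4 in SMC line 1 and 63.2 in SMC line 2. In both SMC lines, the *Chga* locus also had the highest median background of the 10 loci. The median background of its peaks was 2.50 and 1.93 times the lowest of the library in SMC lines 1 and 2, against library medians of 1.35 and 1.09, whereas it was 1.23 and 1.10 times in non-SMC lines 1 and 2. The part of this raised background in the peak counts was not tested. At *Resp18* the median was 1.41 and 1.66 times in SMC lines 1 and 2, and 1 and 1.88 times in non-SMC lines 1 and 2. In the non-SMC lines, the 1 non-SMC-only region of the *Chga* locus lay 15973 bp past the *Chga* start, beyond the gene, at percentiles 67.6 and 90.6.

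*Scg3* (chr9:75643189-75684056, minus strand) encodes secretogranin III, which holds chromogranin A at the granule membrane. Its start had the highest peak of the 10 genes in both SMC lines. The peak over the start ranked at percentile 97.3 in SMC line 1 (-log10 q 12.6) and at 99.9 in SMC line 2 (-log10 q 43.0), with summits -13 and 2 bp from the start, and neither non-SMC line had a peak within 3 kb. The locus held 4 and 12 peaks in SMC lines 1 and 2 and 2 and 3 in non-SMC lines 1 and 2, a log2 ratio of 1.38, which was 0.58 with all lists scaled to the lowest depth and 2.83 over the gene body alone. The only region of the locus with a peak in all 4 libraries (percentiles 74.2 to 93.1) lay 57658 bp from the *Scg3* start, at the promoter of its neighbour *Lysmd2*.

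*Chgb* (chr2:132781278-132795079, plus strand) encodes chromogranin B and differed from *Chga* in that its promoter was open in every library. The percentiles were 94.7 and 89.9 in SMC lines 1 and 2 and 87.9 and 93.6 in non-SMC lines 1 and 2. The positions of the summits did not overlap between the cell types. Counted from the RefSeq start, which lies 364 bp inside the GENCODE gene, the summits were at -115 and -120 bp in the SMC lines and at 198 and 191 bp in the non-SMC lines. The SMC summits lay 43 and 48 bases before the CRE of the printed promoter. The summits of the non-SMC lines lay 30 and 23 bases past letters of the RE1 element, the site of REST, a repressor of neuronal genes. RE1 was searched as CAGCACC, 2 bases and GGACAG on both strands, and it is in capitals in the 121 bases around the summit of non-SMC line 1, shown because both non-SMC peaks were centred beside it (GRCm38, plus strand).
Chgb around the non-SMC line 1 summit, chr2:132781780-132781900: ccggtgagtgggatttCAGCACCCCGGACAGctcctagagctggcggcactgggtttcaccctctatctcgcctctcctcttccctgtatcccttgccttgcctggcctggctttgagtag
These letters, at chr2:132781796-132781810, begin 14 bases past the end of the first exon, in the first intron. Peaks of all 4 libraries covered them, whereas the CRE lay under the peaks of SMC lines 1 and 2 and non-SMC line 2 and outside that of non-SMC line 1, which began 64 bases past the RefSeq start. RE1 letters were found within 100 bp of the summit in 1 of the 9 regions of the 10 loci with a peak in all libraries, this one, in 0.0441% of all such regions of the genome and in 0.0365% of the promoters of the RefSeq table. Peaks in the *Chgb* locus numbered 2 and 4 in the SMC lines and 1 and 2 in the non-SMC lines, or 2.20 and 2.60 against 0.863 and 1.55 per 100000, a log2 ratio of 0.76 that was -0.01 over the gene body alone and 0.50 without non-SMC line 1.

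**Figure D2:**
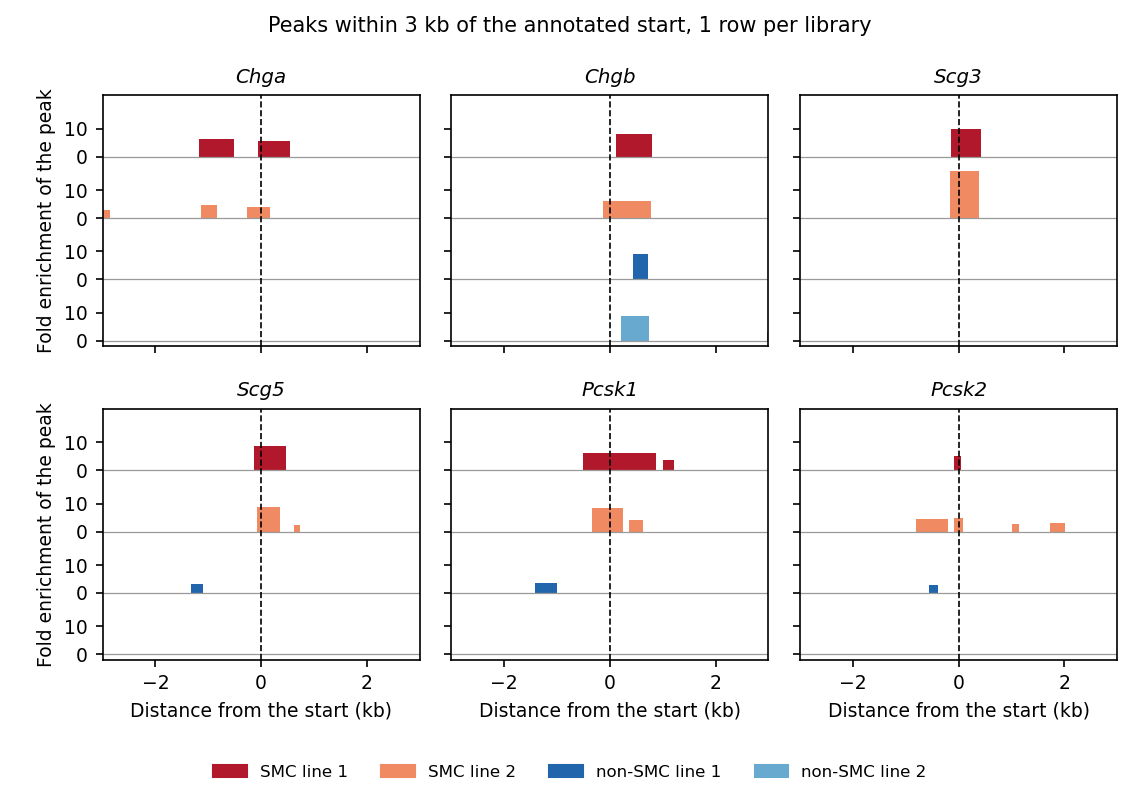
Peaks within 3 kb of the annotated start (dashed line) of 6 genes, with the distance from the start in kb in the direction of transcription on the x axis, 1 row per library, and bar height giving the fold enrichment of the peak over its local background, from 0. Bars cross the start of *Chga*, *Scg3*, *Scg5*, *Pcsk1* and *Pcsk2* in the SMC rows only, and at *Chgb* all 4 rows have a peak, whose non-SMC summits at 562 and 555 bp lie downstream of the SMC summits at 249 and 244 bp.

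*Scg2* (chr1:79434669-79440120, minus strand) encodes secretogranin II, the precursor of secretoneurin, and was the exception among the granins. SMC line 1 had no peak at all in its locus and SMC line 2 had 1, beside 2 and 1 in the non-SMC lines. Peaks lay at the promoter in SMC line 2 (percentile 87.6), non-SMC line 1 (64.8) and non-SMC line 2 (76.6), and each of these 3 covered the CRE. The log2 ratio of -1.09 rested on these few peaks and turned to 2.26 when a -log10 q of 5 or more was required and to 1.05 with 50 kb on each side. Without 1 library it lay between -1.81 (without SMC line 2) and -0.61 (without SMC line 1), and it was -0.63 without non-SMC line 1.

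*Scg5* (chr2:113776362-113829121, minus strand) encodes 7B2, the chaperone that the convertase PCSK2 needs to mature. Its start was covered at percentile 95.9 in SMC line 1 (-log10 q 10.8) and 96.3 in SMC line 2 (-log10 q 19.2). Non-SMC line 1 had a peak at percentile 38.6, -1227 bp from the start, and non-SMC line 2 had none within 3 kb. The whole locus held 7 and 9 peaks in SMC lines 1 and 2 and 8 and 9 in non-SMC lines 1 and 2, a log2 ratio of -0.04 that was 0.70 over the gene body alone, -0.23 when SMC line 1 was left out and 0.14 when SMC line 2 was. The locus also holds the promoters of *Grem1*, which encodes a BMP antagonist, and *Arhgap11a*, and both had a peak in all 4 libraries. The highest non-SMC-only region (chr2:113764888-113765332, percentiles 98.2 and 91.0) lay 63923 bp from the *Scg5* start, beyond the gene and on the side of *Grem1*.

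*Pcsk1* (chr13:75089826-75134861, plus strand) and *Pcsk2* (chr2:143546156-143816285, plus strand) encode the convertases of the granule. The *Pcsk1* start lay under a peak at percentile 89.1 in SMC line 1 (-log10 q 6.00) and 95.7 in SMC line 2 (-log10 q 15.8). Both peaks also covered the CRE, and the summit in SMC line 2 was -15 bp from the GENCODE start. Non-SMC line 1 had a peak at percentile 49.0, -1040 bp from the start, and non-SMC line 2 had no peak anywhere in the locus of 85.0 kb. Peaks numbered 2, 3, 1 and 0, a log2 ratio of 1.47 that rested on these few peaks. It was 2.36 without non-SMC line 1 and 0.92 without non-SMC line 2, 2.72 with all lists scaled to the lowest depth and 3.64 with a -log10 q of 5 or more required.

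The *Pcsk2* start lay under short peaks at percentile 81.4 in SMC line 1 (-log10 q 3.68) and 84.6 in SMC line 2 (-log10 q 6.28), and the peak nearest to it in the non-SMC lines, in line 1, stood at percentile 22.8, -527 bp from the start. Its locus of 310.1 kb held 9 and 31 peaks in SMC lines 1 and 2, and 5 and 13 in non-SMC lines 1 and 2. Per 100000 these were 9.88, 20.1, 4.32 and 10.1, so SMC line 1 and non-SMC line 2 overlapped although the log2 ratio of the means was 1.01. This ratio was 0.43 without SMC line 2, 0.55 without non-SMC line 1 and 1.69 without non-SMC line 2, 1.82 after scaling to the lowest depth, and 5.14 with a -log10 q of 5 or more required. Of these peaks, 1, 7, 0 and 0 reached a -log10 q of 5. The SMC-only region with the highest mean percentile lay in an intron 95642 bp past the start (chr2:143641218-143641943), at percentile 84.9 in SMC line 1 and 99.5 in SMC line 2. Another, beyond the gene at chr2:143825270-143825617, stood at 90.2 and 81.9. The single non-SMC-only region was low, at percentiles 38.6 and 61.1, over an exon 238413 bp past the start.

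*Cpe* (chr8:64592542-64693054, minus strand) encodes carboxypeptidase E, which trims the ends that the convertases leave. Its start was open in all 4 libraries, with percentiles of 91.3 and 97.2 in SMC lines 1 and 2 and 79.4 and 88.6 in non-SMC lines 1 and 2. The difference lay along the gene, and toward non-SMC. The locus held 10 and 8 peaks in SMC lines 1 and 2 and 19 and 16 in non-SMC lines 1 and 2, or 11.0 and 5.20 against 16.4 and 12.4 per 100000, with no overlap and a log2 ratio of -0.80. More peaks per 100000 in each non-SMC line were found at 18.7% of protein-coding loci with a peak. Of the 40 regions of the *Cpe* locus, 6 were non-SMC-only and 1 was SMC-only. Over all regions of the genome, these shares were 7.33% and 4.37%. The highest of the 6 was an intronic region 77416 bp past the start (chr8:64615282-64615941), at percentiles 96.9 and 99.9 in non-SMC lines 1 and 2. The 1 SMC region, also intronic, stood at percentiles 70.0 and 93.9, 63528 bp past the start. With a -log10 q of 5 or more required, the log2 ratio of the locus was -0.17, and it was -1.39 without SMC line 1, -0.38 without SMC line 2 and -0.53 after scaling to the lowest depth.

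*Pam* (chr1:97795114-98095646, minus strand) encodes the amidating enzyme, which non-endocrine tissues such as heart also make. Its start was covered in all 4 libraries, at percentiles 57.8 and 71.1 in SMC lines 1 and 2 and 92.0 and 83.6 in non-SMC lines 1 and 2, each a rank within a list of its own length and not a measure of the difference between cell types. The locus of 340.5 kb held 15 and 30 peaks in SMC lines 1 and 2 and 15 and 18 in non-SMC lines 1 and 2, or 16.5 and 19.5 against 12.9 and 14.0 per 100000, a log2 ratio of 0.40 that was 0.13 with a -log10 q of 5 or more required. The locus held both SMC-only and non-SMC-only regions. In the intron region chr1:97918365-97918929, 177030 bp past the start, SMC lines 1 and 2 had peaks at percentiles 99.3 and 99.1 and the non-SMC lines had none. In the intron region chr1:98038053-98038730, 57242 bp past the start, non-SMC lines 1 and 2 had peaks at percentiles 99.3 and 99.9 and the SMC lines had none. Of the 53 regions of the *Pam* locus, 4 were SMC-only and 5 were non-SMC-only, and 3 were found in all libraries. Over all regions of the genome, 4.37% were SMC-only and 7.33% non-SMC-only. One of the shared regions, 47849 bp past the start, ranked at percentile 95.5 or above in each library.

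The 3 intronic SMC-only or non-SMC-only regions of *Pam* and *Cpe* with the highest mean percentiles are printed as the 121 bases around their summits (GRCm38, plus strand). Capitals mark TGANTCA, the AP-1 site, where N is any base, and CAGCTG.
Pam SMC region, chr1:97918556-97918676: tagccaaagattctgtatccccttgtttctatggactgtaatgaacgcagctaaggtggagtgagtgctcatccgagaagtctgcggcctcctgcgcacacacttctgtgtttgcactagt
Pam non-SMC region, chr1:98038344-98038464: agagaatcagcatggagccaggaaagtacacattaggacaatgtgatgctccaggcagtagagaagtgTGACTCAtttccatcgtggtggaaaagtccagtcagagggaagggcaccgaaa
Cpe non-SMC region, chr8:64615578-64615698: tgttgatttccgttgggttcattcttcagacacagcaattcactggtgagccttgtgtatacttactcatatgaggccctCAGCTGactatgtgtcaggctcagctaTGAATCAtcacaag
The SMC region of *Pam* held neither motif in these bases, the non-SMC region of *Pam* held TGACTCA near its summit, and that of *Cpe* held TGAATCA and CAGCTG.

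**Figure D3:**
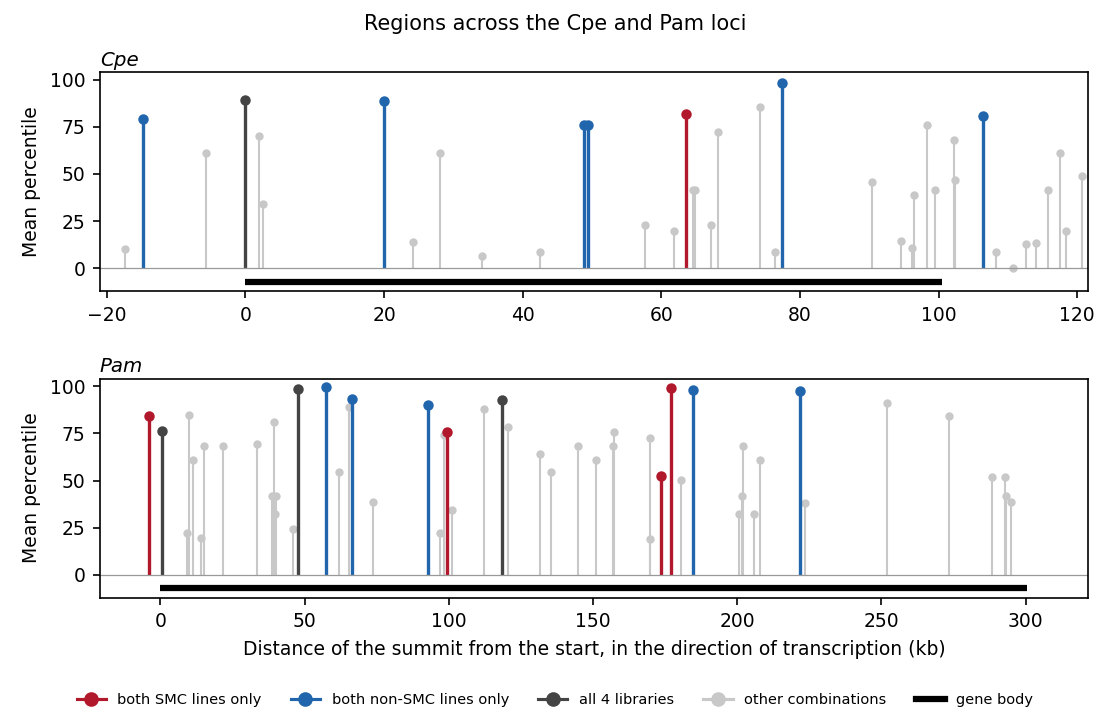
Regions of the *Cpe* and *Pam* loci, placed by the distance of the summit from the start in kb in the direction of transcription (x axis), with the height giving the mean percentile of fold enrichment over the libraries that have a peak in the region (y axis), coloured by the libraries in which a peak was listed, and the gene body as a black bar. *Cpe* has 6 non-SMC regions and 1 SMC region, and *Pam* has 5 and 4, while a region at each start was found in all 4 libraries.

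*Resp18* (chr1:75272199-75278415, minus strand) encodes a protein of the secretory pathway of endocrine cells. Its highest promoter peaks, at percentiles 35.2 and 47.3 in the SMC lines, were below those of the other genes that had one there, and non-SMC line 1 had one at 38.6 and non-SMC line 2 none. The locus held 4 and 9 peaks in the SMC lines and 7 and 5 in the non-SMC lines, and the log2 ratio was 0.04, with -0.42 in line pair 1 and 0.53 in pair 2. With 1 library left out it ranged from -0.22 (without non-SMC line 2) to 0.36 (without non-SMC line 1). Upstream, an SMC-only region (chr1:75289463-75289648, percentiles 91.3 and 86.5) lay at -11163 bp and a non-SMC-only region (chr1:75292494-75293562, percentiles 85.0 and 93.3) at -14587 bp from the start. The promoter of the neighbouring *Ptprn*, which encodes a granule membrane protein, had a peak in all 4 libraries.

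Summed over the 10 loci, the lists held 62 and 119 peaks in SMC lines 1 and 2, and 63 and 72 in non-SMC lines 1 and 2. Per 100000 listed peaks these were 68.1, 77.3, 54.4 and 55.9, which gives SMC a mean of 72.7 ± 6.51 (SD, n = 2) and non-SMC one of 55.2 ± 1.10 (SD, n = 2), a log2 ratio of 0.40. Both SMC lines were above both non-SMC lines. By gene, *Chga*, *Chgb*, *Scg3*, *Pcsk1* and *Pam* had more peaks per 100000 in each SMC line than in each non-SMC line, which is 5 of 10 against 20.6% of protein-coding loci with a peak. *Scg2* and *Cpe* had more in each non-SMC line, 2 of 10 against 18.7%. The median log2 ratio was 0.58 over the 10 genes and 0.04 over all loci, and 7 of 10 against 52.5% were above 0. As listed, without dividing by the length of the list, 3 and 1 genes had more peaks in each SMC and each non-SMC line.

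**Figure D4:**
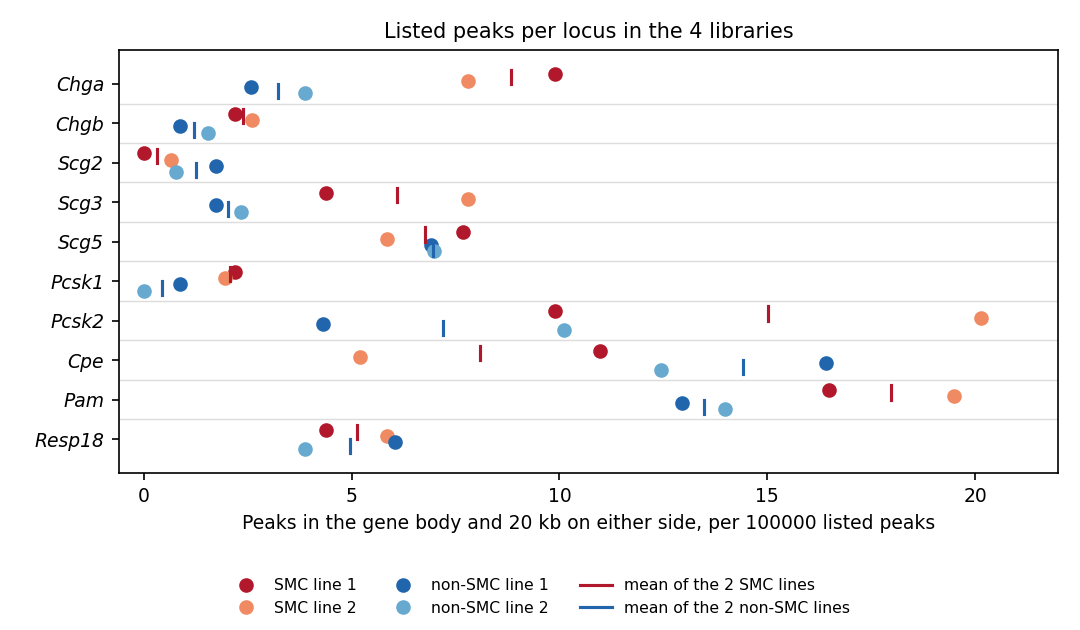
Peaks in the gene body and 20 kb on either side per 100000 listed peaks (x axis) for each of the 10 genes (y axis), with 1 point per library and short lines at the means of the 2 SMC and the 2 non-SMC lines. Both SMC points lie to the right of both non-SMC points for *Chga*, *Chgb*, *Scg3*, *Pcsk1* and *Pam*, and to the left of them for *Scg2* and *Cpe*.

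Merging the 4 lists gave 225 regions in the 10 loci. Of these, 18 (8%) were SMC-only, against 4.37% of the 357570 regions of the genome, and 16 (7.11%) non-SMC-only, against 7.33%. A further 9 regions (4%) had a peak in all libraries, and 168 (74.7%) rested on a single library, against 76.9% in the genome. The SMC and non-SMC regions lay at different places. Of the 18 SMC regions, 6 (33.3%) had the summit within 3 kb of the start of a member, and 9.55% of SMC-only regions of the genome lay as near to the start of any protein-coding gene. Of the 16 non-SMC regions, 0 lay within 3 kb of a start, against 7.58% in the genome. Each locus holds a start by the way it was drawn, whereas the genome shares include regions far from any gene. The shares are therefore not like for like, and the 6 SMC regions include the SMC-only starts counted above. The median distance from the start of the member was 8175 bp for the SMC regions. Of these, 5 had summits upstream of the *Chga* start, in a locus with raised background in the SMC lines. For the non-SMC regions the median distance was 60582.5 bp, and 11 of these regions were in the loci of *Cpe* and *Pam*. The *Pcsk2* locus, of 310.1 kb, held 1 of them. Only 8 SMC regions were left when a -log10 q of 5 or more was required, and leaving out SMC line 1 raised their number to 95.

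The letters near the summits also differed between the 2 sets. Within 100 bp of the summit on both strands, TGANTCA was found in 11 of the 16 non-SMC regions (68.8%) and in 3 of the 18 SMC regions (16.7%). The same shares of all such regions of the genome were 55.5% and 6.59%, so the contrast was shared by the genome. CAGCTG was found in 1 of 18 SMC regions (5.56%, exact 95% binomial interval 0.141% to 27.3%), 1 of the 2 upstream of *Resp18*, and in 21.1% of SMC regions of the genome. The interval takes the regions as independent, though 5 of them were in the *Chga* locus, and it does not measure the spread between lines. The share with CAGCTG depended on the window, since 0 of 18 held it within 50 bp (12.1% in the genome) and 7 of 18 (38.9%) within 200 bp (32.1% in the genome). The SOX letters ACAANG were found in 9 of 18 SMC regions and 11 of 16 non-SMC regions, against 49.8% and 37.9% in the genome. TGACGTCA was found in 1 SMC region, that over the start of *Pcsk1*, against 0.359% in the genome. GGAATG, the TEAD letters, was found in 0 of 18 SMC and 3 of 16 non-SMC regions, against 9.48% and 19.3%.

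Other genes of the pathway were examined with the same measures. Among 12 genes of the regulated pathway, which act in dense-core granules or in their making or release, the starts of *Pcsk1n*, *Ptprn2* and *Cadps* were SMC-only. That was 3 of 12 against 2.29% of protein-coding genes, and none had the opposite pattern, held by 2.34%. *Pcsk1n* encodes proSAAS, an inhibitor of PCSK1, *Ptprn2* a granule membrane protein, and *Cadps* a priming factor of granule release. Their log2 ratios of peaks in the locus were 0.38, 1.70 and 1.74. The other 9 (*Vgf*, *Ptprn*, *Qpct*, *Cadps2*, *Hid1*, *Ccdc186*, *Slc18a1*, *Slc18a2* and *Scgn*) were not covered in this way, and 5 of the 12 starts (41.7%) had no peak over them in any library, against 48.3% of all protein-coding genes. Of 8 genes for processing mainly outside these granules (*Furin*, *Pcsk4*, *Pcsk5*, *Pcsk6*, *Pcsk7*, *Cpd*, *Cpm* and *Cpz*), 0 had a start covered in this way in either direction. With such low shares over all genes, 0 of 8 does not set this list apart from the 12. In the 6 kb promoter window, however, 3 of the 12 (*Pcsk1n*, *Ptprn2* and *Cadps2*) and 1 of the 8 (*Pcsk6*, with a log2 ratio of peaks in the locus of 1.4) were SMC-only, and 0 in either list were non-SMC-only. Over all promoters these shares were 3.08% and 2.45%. More peaks per 100000 in each SMC line than in each non-SMC line were found at 5 of the 12 and 4 of the 8 loci, against 20.6% of all loci with a peak, and the reverse at 3 and 1, against 18.7%. The median log2 ratios were 0.42 and 0.22.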

How the data were processed

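ATAC-seq libraries were prepared with a transposase kit and sequenced with 150 bp paired-end reads. The authors mapped them to mm10 with Bowtie2 v2.3.4, removed duplicates and called peaks with MACS2 v2.1.1 in each library separately. The settings of the peak calling are not given in the sources used here. For each peak the authors deposited the fold enrichment, the ratio of summit pileup to local background after 1 is added to both, with its -log10 p-value and -log10 q-value. The distance from the start of a peak to its summit was also deposited, and the deposited score was not used.

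Read depth is not part of these lists, so no depth per library is given. The fold enrichment and p of a peak were solved together for its pileup and background, which worked for all but 3 to 5 peaks per library, and the lowest background stood for relative depth. Only chromosomes 1 to 19, X and Y were used, which dropped 61 to 85 peaks per library. Genes were those of GENCODE M21, and the 5′ end of the gene was the start. Regions joined peaks that shared 1 base or more, a log2 ratio compared mean peaks per 100000 listed peaks with 0.5 added, and a percentile is the rank of the fold enrichment within a list. Promoter sequences came from a RefSeq table, in which 9 of the 10 genes matched, and other sequences from GRCm38.

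All 10 genes are named, with the highest SMC-only and non-SMC-only regions of each locus and the genes whose 5′ end lies in it. The genes and lists were chosen with earlier results of these data known. The count of genes with a peak over the start, its alternatives and the TGACGT search were added with the data in view. A marker gene of the neuroendocrine list is not reported here. The steps were tested on simulated data. Python 3.11.15 was used with pandas 2.3.3, numpy 2.4.6, scipy 1.17.1, pysam 0.24.0 and matplotlib 3.10.9, and with samtools 1.23.1 and bedtools 2.31.1.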

Additional observations from a re-analysis of the deposited data

Results flagged for a closer look

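At 2 genes the line pairs moved in opposite directions, and the difference between the pairs was not tested. At *Scg5*, the log2 ratio of SMC over non-SMC peaks in the locus was 0.14 in pair 1 and -0.24 in pair 2, so that pair 2 minus pair 1 was -0.38. At *Resp18* it was -0.42 in pair 1 and 0.53 in pair 2, a difference of 0.95. These differences rest on 7 to 9 listed peaks per library at *Scg5* and 4 to 9 at *Resp18*.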

How the results depend on the processing

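Both SMC lines exceeded both non-SMC lines in peaks per 100000 over the 10 loci with a log2 ratio of 0.40, which was 0.68 with a -log10 q of at least 5, 0.58 with all lists scaled to the lowest depth, 0.30 to 0.49 with 1 library left out, and 0.40 with the line pair as a replicate block, though the labels do not say what a shared number stands for. SMC-only regions fell from 18 to 8 with that q, 10 over gene bodies alone and 11 with a reciprocal overlap of 50%, and numbered 18 to 95 with 1 library left out, as fewer libraries had to match. Non-SMC-only regions numbered 16 to 54 in that case. SMC-only promoters rose from 2 to 4 with that q, 5 after scaling and 4 in windows of 2 kb or 1 kb, were 1 over the 5′ ends of every transcript, and 2 to 6 with 1 library left out. Non-SMC-only promoters were 1 with that q and 0 to 1 with 1 library left out. Genes with more peaks in each SMC line were 3 as listed, and those with more in each non-SMC line were 0 with that q, 1 with equal numbers of top peaks (91057), 1 after scaling and 1 as listed. SMC-only starts were 5 to 8 with 1 library left out. CAGCTG was in 0% of SMC-only regions within 50 bp and 38.9% within 200 bp. *Scg2* reversed to 2.26 with that q and 1.05 with 50 kb on each side, and *Chgb* to -0.0084 over the gene body. The cause of these shifts was not tested. A gene without a listed peak may still be open below the limit of the peak calling, and the shallower libraries limit this most.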
